A study of Mus musculus with 9 samples.

Results

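The nuclear genes for the mitochondrial respiratory chain were followed in natural killer (NK) cells that lacked the Janus kinase TYK2, carried a kinase-inactive form of it, or were wild type. Members were all genes whose only symbol in the platform annotation begins with Nduf, Sdha, Sdhb, Sdhc, Sdhd, Uqcr, Cox4i, Cox5, Cox6, Cox7, Cox8 or Atp5, with the brightest probe set taken for each gene. This gave 93 of 22180 genes with a probe set of their own. They comprised 32 subunits of complex I, 4 of complex II, 7 of complex III, 19 of complex IV and 17 of complex V, 8 complex I assembly factors (Ndufaf1 to Ndufaf8), 4 complex II assembly factors (Sdhaf1 to Sdhaf4) and 2 pseudogenes. Ndufa4 and Ndufa4l2 were counted with complex IV, where their products are now placed. Cells came from spleens of female C57BL/6N mice, whose age is not given in the sources used here. The 3 groups were WT, Tyk2K923E and Tyk2-/-, and in all of them DX5-enriched cells pooled from 3 to 4 mice were kept in culture with rhIL-2 (5000 U/ml), which drives NK cells to divide, over 7 days. Each genotype was hybridised once in each of 3 independent experiments, so 9 arrays were compared. Unless said otherwise, p-values set a difference against the spread between pools that remains after genotype and experiment are fitted.

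Electrons from NADH enter the chain at complex I and those from succinate at complex II. They pass through complex III and cytochrome c to oxygen at complex IV, and complex V (ATP synthase) uses the proton gradient built on the way to make ATP. Most subunits are encoded in the nucleus, a few core subunits in mitochondrial DNA, and IL-2-driven proliferation of NK cells is known to come with a rise in both glycolysis and respiration. Several complex IV subunits exist as tissue-restricted isoforms, such as those of heart and skeletal muscle.

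The promoters of these genes are known for sites of nuclear respiratory factor 1 (NRF1) and of the ETS-family factor GABP (nuclear respiratory factor 2). RefSeq promoter windows (GRCm38.p6, 250 bases before to 50 after the start) were matched for 76 of the 93 genes and searched on both strands. Counts are of genes, and a gene with more than 1 window was counted if any of them held the motif. The NRF1 motif CGCATGCGC was present in 10 of the 76 genes (13.2%), against 3.96% of 9859 genes tested on these arrays and 1.95% of all 27025 genes with a window. With any base in its middle, CGCANGCGC, a pattern that includes the first, it was present in 25 (32.9%, against 14.6% and 7.12%). The ETS motif CCGGAAG stood in 22 (28.9%, against 19.3% and 9.93%), and the YY1 motif AAGATGGCG in 7 (9.21%, against 3.39% and 1.64%). The SP1 motif GGGCGG stood in 38 (50.0%), a share below the 66.4% of genes tested and above the 38.2% of all genes with a window. None of these 5 patterns was found for 14 of the 76 genes. These matches are descriptions of letters and not of binding. Shown here are the stretches upstream of the start of a complex I subunit and a complex I assembly factor with some of the larger genotype differences described below, and of a complex IV and a complex V subunit whose largest differences were 0.05 and 0.09. Capitals mark the NRF1 motif, which matches on both strands within the same 10 letters and begins 60, 113, 162 and 42 bases before the start of Ndufa11, Ndufaf4, Cox6a1 and Atp5g2, and, in Cox6a1, also the ETS motif on the opposite strand, CTTCCGG, 16 bases before the start.
Ndufa11, chr17:56717642-56717761, plus strand: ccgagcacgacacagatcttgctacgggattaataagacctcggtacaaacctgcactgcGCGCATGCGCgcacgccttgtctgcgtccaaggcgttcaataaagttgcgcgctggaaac
Ndufaf4, chr4:24897910-24898039, plus strand: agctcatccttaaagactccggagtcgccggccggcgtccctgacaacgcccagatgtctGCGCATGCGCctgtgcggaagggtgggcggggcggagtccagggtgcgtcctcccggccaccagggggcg
Cox6a1, chr5:115348959-115349180, minus strand: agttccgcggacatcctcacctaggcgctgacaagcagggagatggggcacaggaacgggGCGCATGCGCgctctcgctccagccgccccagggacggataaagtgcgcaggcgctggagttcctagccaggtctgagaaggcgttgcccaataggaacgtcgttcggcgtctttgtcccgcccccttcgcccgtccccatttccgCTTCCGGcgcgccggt
Atp5g2, chr15:102671048-102671149, minus strand: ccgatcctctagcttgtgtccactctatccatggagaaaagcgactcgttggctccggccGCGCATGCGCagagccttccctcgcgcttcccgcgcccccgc
Between Tyk2-/- and WT, Ndufa11 differed by 0.26, with a second, dimmer probe set at -0.17, and Atp5g2 by 0.03, both without passing the test. Whether the motif has a part in any difference was not tested.

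All values are log2 expression on the deposited scale, on which the medians of the 9 arrays lay between 5.42 and 5.48. The probe set of Tyk2 was not lower in Tyk2-/- (9.55, 8.63 and 8.85) than in WT (8.68, 8.56 and 8.63). Neither the deleted part nor the probe positions are given in the sources used here, so it does not check the labels. All 13 measured NK cell markers reached the array median on all 9 arrays. Their mean log2 level on an array lay between 10.92 and 10.97 in WT, 10.79 and 10.82 in Tyk2K923E and 10.75 and 10.91 in Tyk2-/-, so the WT arrays did not overlap with those of either mutant. The list was split, with 5 markers higher and 8 lower than WT in each mutant. Its median difference was -0.13 in Tyk2-/- and -0.12 in Tyk2K923E. Among them Itga2, the integrin subunit that carries the DX5 antigen, was lower in Tyk2K923E than in WT by a log2 difference of -0.71 (limma adjusted p = 0.0375). Without pairing its limma adjusted p there was 0.155. In Tyk2-/- Itga2 differed from WT by -0.39, the lowest value of the list, without passing the test. Of 11 T cell markers, 9 reached the array median on all arrays, and the mean log2 level over the list lay between 8.22 and 8.56 in WT, 7.95 and 8.24 in Tyk2K923E and 8.20 and 8.46 in Tyk2-/-. All 10 that were tested were lower in Tyk2K923E than in WT (median -0.32), and 8 were lower in Tyk2-/- (median -0.10). Within experiments 1, 2 and 3 the Tyk2K923E medians were -0.57, 0.03 and -0.45. No T cell marker had a limma adjusted p under 0.05. Of 6 basophil and mast cell markers, Mcpt8, Cpa3 and Kit reached the median on all arrays, whereas Fcer1a, Ms4a2 and Prss34 did so on none. The mean level over all 6 was 6.01 to 6.22 in WT, 6.21 to 6.59 in Tyk2K923E and 6.12 to 6.36 in Tyk2-/-. The 3 tested were all higher in Tyk2K923E than in WT, by 0.77 for Mcpt8, 0.91 for Cpa3 and 0.26 for Kit. In Tyk2-/- 2 of these 3 were higher and 1 lower than WT (median 0.29). None of them had a limma adjusted p under 0.05. Of 7 monocyte and macrophage markers, Ccr2 and Cd14 reached the median on all arrays, and the mean level over the list was 5.88 to 6.00 in WT, 5.97 to 6.09 in Tyk2K923E and 5.85 to 5.93 in Tyk2-/-. Cd14 differed from WT by 0.42 in Tyk2K923E and 0.20 in Tyk2-/-, and Ccr2 by -0.24 and -0.29, all with a limma adjusted p above 0.05. The part of such cells in the differences below was not tested, and in bulk RNA fewer cells of a type and less RNA per cell cannot be told apart.

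Of the 93 genes, 85 reached their array's median on at least 3 arrays and were tested, all 85 of them on all 9 arrays. The 8 others were Ndufs5, above the median on 2 arrays, and 7 that were above it on none: the pseudogenes Atp5c1-ps and Uqcrh-ps1, the complex IV isoforms Cox6b2 and Cox7b2, known from testis, Cox8b, known from heart and muscle, Cox8c, also known from testis, and the Ndufa4 paralogue Ndufa4l2. Low signal bounds these 8 genes only and does not show that they were off.

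Messenger RNA of the respiratory chain differed little between genotypes. With the experiments paired, 0 of 85 members passed the limma test (adjusted p under 0.05) in Tyk2-/- against WT, where 0.0874% of all 12579 genes passed. The same count of 0 was found in Tyk2K923E against WT (background 0.0874%) and in Tyk2-/- against Tyk2K923E (background 0.0238%), and the fit without pairing also called 0 in each (backgrounds 0.0318%, 0.00795% and 0.0238%). At an unadjusted limma p under 0.05 there were 5, 4 and 8 members, or 5.88%, 4.71% and 9.41%, against 9.08%, 10.0% and 9.68% of all genes. The median difference over the 85 was 0.03 in Tyk2-/- against WT (50 higher, 35 lower), 0.02 in Tyk2K923E against WT (52 and 33) and -0.02 in Tyk2-/- against Tyk2K923E (38 and 47). Over all genes tested those medians were 0.0045, 0.0020 and 0.0026. The 3 comparisons share arrays, so the same WT or mutant values enter more than one of them.

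The paired fit also gives, gene by gene, a 95% interval for the difference in array signal. The 95% interval of the difference lay within 0.5 log2 units of 0, a 1.41-fold change, for 83 of 85 members in Tyk2-/- against WT, where 94.5% of all genes did so. It did for 84 members in each of the other comparisons (backgrounds 93.6% and 93.5%), and for all 85 it lay within 1 log2 unit in each comparison. The members whose intervals reached beyond 0.5 were Cox6a2 and Cox7a1, both muscle-type isoforms of complex IV. In Tyk2-/- against WT, Cox6a2 did so through the size of its difference (-0.49, interval -0.73 to -0.26). Cox7a1 did so through a larger SE (difference -0.17, SE 0.15, interval -0.51 to 0.17). Without pairing, the interval lay within 0.5 for 76 of 85 members in each comparison, and within 1 for 83, 85 and 84 of them in Tyk2-/- against WT, Tyk2K923E against WT and Tyk2-/- against Tyk2K923E.

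**Figure D1:**
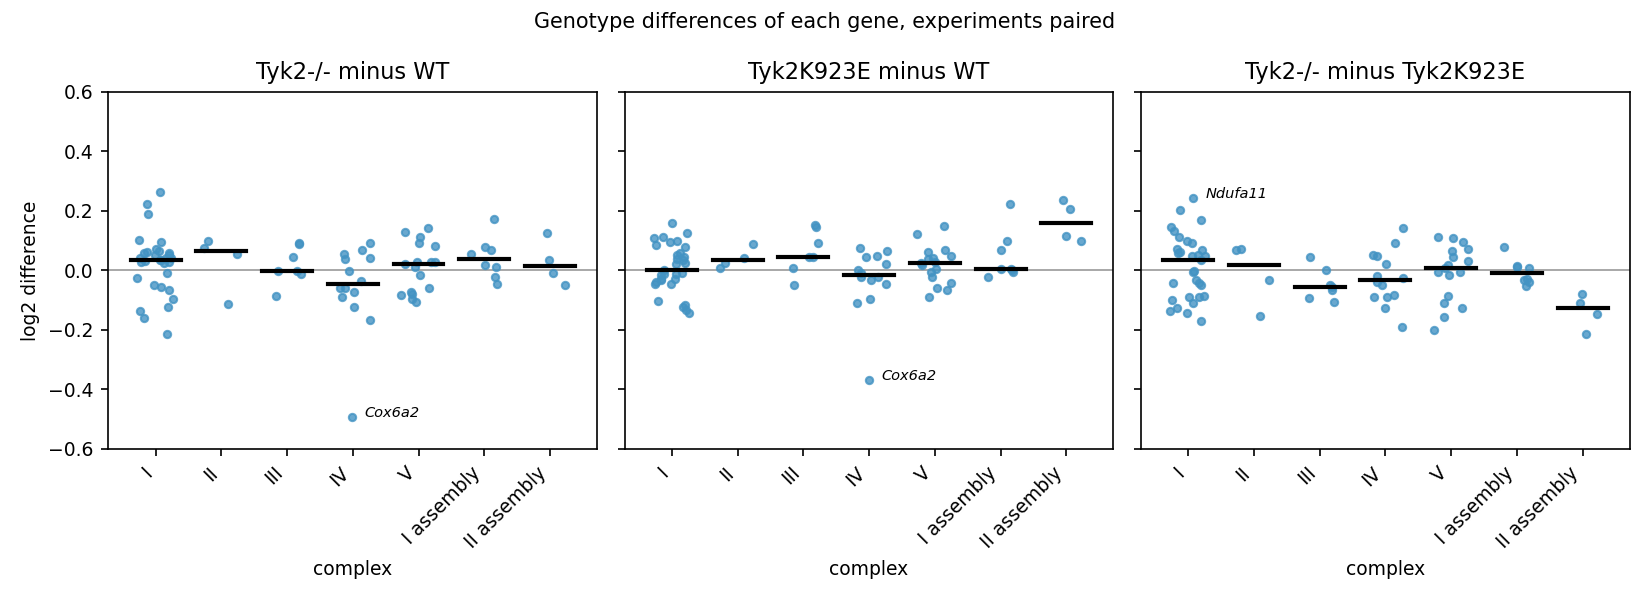
Log2 difference of each of the 85 genes tested (points) by complex in the 3 comparisons, with the median of each complex as a black bar. The medians of complexes I to V lie between -0.05 and 0.07, and Cox6a2 is the lowest point in both comparisons with WT.

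Complex I, the NADH dehydrogenase, had 31 members tested, and its median difference was 0.03 in Tyk2-/- against WT (21 of 31 higher), 0.0019 in Tyk2K923E against WT (16 higher) and 0.03 in Tyk2-/- against Tyk2K923E (16 higher). The median over members within experiments 1, 2 and 3 was 0.0083, 0.05 and 0.01 for Tyk2-/- against WT. Ndufa11, an accessory subunit of the membrane arm, read 9.14, 9.21 and 9.28 in WT in experiments 1 to 3, 9.21, 9.28 and 9.21 in Tyk2K923E, and 9.34, 9.50 and 9.59 in Tyk2-/-. Its 3 Tyk2-/- arrays were above all 6 others. The difference was 0.26 (SE 0.07, limma adjusted p = 0.316) from WT and 0.24 (SE 0.07, limma adjusted p = 0.452) from Tyk2K923E. A second, dimmer probe set of Ndufa11, with a mean level of 5.75, differed the other way, by -0.17 and -0.19, and over the mean of both probe sets the differences were 0.05 and 0.03. Ndufs7, a core subunit that carries the iron-sulphur cluster next to the ubiquinone site, read 10.32, 10.39 and 10.32 in WT, 10.35, 10.36 and 10.28 in Tyk2K923E, and 10.58, 10.52 and 10.50 in Tyk2-/-. Here too the Tyk2-/- arrays lay above the other 6, by 0.19 from WT (SE 0.06, limma adjusted p = 0.421) and 0.20 from Tyk2K923E (SE 0.06, limma adjusted p = 0.452). Groups did not overlap for 6 of the 85 members in Tyk2-/- against WT (7.06%, against 5.33% of all genes), namely Ndufa11, Ndufs7, Ndufb9, Sdha, Atp5d and Atp5e.

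Of the other core subunits, Ndufs1, the largest of the complex, read 8.93, 9.13 and 9.13 in WT, 8.95, 9.22 and 9.32 in Tyk2K923E and 9.13, 9.22 and 9.13 in Tyk2-/-, and its groups overlapped in all comparisons. Ndufv1, which binds NADH, differed by 0.03 in Tyk2-/- and 0.04 in Tyk2K923E against WT. Among accessory subunits, Ndufab1, the mitochondrial acyl carrier protein, differed by 0.22 in Tyk2-/- against WT (limma adjusted p = 0.528), but 5 of its 9 arrays shared 1 value, and Ndufb3 differed by -0.16 (limma adjusted p = 0.528). Ndufb8, a membrane-arm subunit, had the smallest p of the complex in Tyk2K923E against WT, with -0.13 (SE 0.06, limma adjusted p = 0.513) and a lower value in 3 of 3 experiments. Ndufa8 differed by 0.17 in Tyk2-/- against Tyk2K923E (limma adjusted p = 0.462), and its second probe set by 0.21.

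The 8 complex I assembly factors of the Ndufaf series had medians of 0.04, 0.0043 and -0.0094 in the same order of comparisons. Ndufaf4, which works on early assembly intermediates, had the smallest p among them in each comparison. It read 6.94, 7.63 and 7.64 in WT, 7.33, 7.72 and 7.84 in Tyk2K923E, and 7.31, 7.73 and 7.69 in Tyk2-/-. The values followed the experiment more than the genotype, and the groups overlapped. Within experiments it was higher than WT in 3 of 3 for both mutants, by 0.22 in Tyk2K923E (SE 0.08, limma adjusted p = 0.373) and 0.17 in Tyk2-/- (SE 0.08, limma adjusted p = 0.573).

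Complex II, succinate dehydrogenase, is the one complex with no subunit encoded in mitochondrial DNA. Its 4 subunits had medians of 0.07 in Tyk2-/- against WT, 0.03 in Tyk2K923E against WT and 0.02 between the mutants. Sdha, the flavoprotein, read 10.63, 10.72 and 10.76 in WT, 10.59, 10.86 and 10.74 in Tyk2K923E and 10.77, 10.77 and 10.86 in Tyk2-/-. Its Tyk2-/- arrays lay just above those of WT, with a difference of 0.10 (SE 0.07, limma adjusted p = 0.699). Sdhb, the iron-sulphur subunit, differed by 0.08 in the same comparison (limma adjusted p = 0.713). Sdhc, a membrane anchor, read 9.16, 8.96 and 8.91 in WT, 9.27, 8.98 and 8.90 in Tyk2K923E and 9.11, 8.83 and 8.74 in Tyk2-/-. It was lower in Tyk2-/- than in Tyk2K923E in 3 of 3 experiments, by -0.15 (SE 0.06, limma adjusted p = 0.47), with overlapping groups. The other anchor, Sdhd, had the smallest p in Tyk2K923E against WT, with 0.09 (limma adjusted p = 0.725).

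The 4 complex II assembly factors were all higher in Tyk2K923E than in WT, with a median of 0.16 that was 0.20, 0.07 and 0.15 within experiments 1 to 3. No member passed the test. Sdhaf4, which helps to mature the flavinated SDHA, read 6.49, 6.28 and 6.16 in WT, 6.87, 6.37 and 6.31 in Tyk2K923E and 6.48, 6.11 and 6.32 in Tyk2-/-. Its difference was 0.21 from WT (SE 0.09, limma adjusted p = 0.49), and Tyk2-/- lay -0.21 from Tyk2K923E (limma adjusted p = 0.497). Sdhaf3 differed by 0.24, Sdhaf1 by 0.12 and Sdhaf2 by 0.10 between Tyk2K923E and WT. In Tyk2-/- against WT the 4 factors split into 2 higher and 2 lower, with a median of 0.01.

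Complex III, the cytochrome bc1 complex, had 7 members tested and medians of -0.0034 in Tyk2-/- against WT, 0.05 in Tyk2K923E against WT (6 of 7 higher) and -0.05 between the mutants (5 of 7 lower in Tyk2-/-). Uqcr11, the smallest subunit, read 7.35, 7.37 and 7.42 in WT, 7.57, 7.55 and 7.48 in Tyk2K923E and 7.38, 7.55 and 7.46 in Tyk2-/-. The WT and Tyk2K923E arrays did not overlap, at a difference of 0.15 (SE 0.07, limma adjusted p = 0.489). Uqcr11 and Atp5j were the members without overlap in that comparison, 2 of 85 (2.35%) against 7.23% of all genes. The core subunit Uqcrc1 differed by 0.04 from WT in each mutant, and the Rieske iron-sulphur protein Uqcrfs1 by -0.0034 in Tyk2-/- and 0.05 in Tyk2K923E. Uqcrb had the smallest p between the mutants, with -0.11 (limma adjusted p = 0.551). The complex III subunit Cyc1 falls outside the symbol rule and is given with the further subunits below.

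Complex IV, cytochrome c oxidase, held the largest single difference. Cox6a2, the isoform of subunit 6a known from heart and skeletal muscle, read 6.89, 6.17 and 6.37 in WT, 6.38, 5.77 and 6.17 in Tyk2K923E and 6.29, 5.89 and 5.76 in Tyk2-/-. Cox6a2 was dim, with a mean of 6.19 that lay above the array medians (5.42 to 5.48) but below the arrays' 70th percentiles (6.76 to 6.84). It was lower than WT in 3 of 3 experiments in both mutants, but experiment 1 was high throughout and the groups overlapped. The difference was -0.49 in Tyk2-/- (95% interval -0.73 to -0.26, limma adjusted p = 0.245) and -0.37 in Tyk2K923E (-0.60 to -0.14, limma adjusted p = 0.246), and without pairing the limma adjusted p was 1 in both. Its widely expressed partner Cox6a1 read 12.81, 13.00 and 12.96 in WT, 12.71, 13.01 and 13.02 in Tyk2K923E and 12.76, 13.06 and 13.07 in Tyk2-/-. Cox6a1 thus stayed within 0.05 of 0 in each comparison.

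The other isoforms of complex IV gave no call. Cox7a1, the heart and muscle form of subunit 7a, read 7.32, 6.82 and 6.82 in WT, 7.84, 6.67 and 6.51 in Tyk2K923E and 7.30, 6.76 and 6.39 in Tyk2-/-, with differences of -0.17 and 0.02 from WT and an SE of 0.15. The widely expressed Cox7a2 differed by -0.03 and 0.05, and Cox7a2l, which takes part in supercomplex assembly, by -0.12 and -0.03. Cox4i2, the isoform of subunit 4 known from lung and from low oxygen, lay between 5.65 and 6.01 on the 9 arrays, near the array medians, and differed by -0.09 in Tyk2-/- and by -0.00045 in Tyk2K923E. Its partner Cox4i1 differed by -0.0027 and 0.05 (limma adjusted p = 0.995 and 0.855), and Cox5a, another widely expressed subunit, by 0.06 and 0.08. Cox6b1 differed by 0.04 and 0.07, Cox7b by -0.06 and -0.02, and Ndufa4 by -0.07 and -0.09. Cox8a had the smallest p between the mutants, 0.14 higher in Tyk2-/- (SE 0.06, limma adjusted p = 0.487). Over the 14 members tested the medians were -0.05, -0.02 and -0.03, with 5 of 14 higher in each comparison.

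Complex V, the ATP synthase, had 17 members tested and medians of 0.02, 0.03 and 0.0094. The catalytic beta subunit Atp5b read 12.33, 12.55 and 12.55 in WT, 12.39, 12.57 and 12.62 in Tyk2K923E and 12.48, 12.59 and 12.61 in Tyk2-/-. In every genotype experiment 1 was lowest, and Atp5b differed by 0.08 in Tyk2-/- and 0.05 in Tyk2K923E against WT (limma adjusted p = 0.698 and 0.826). The alpha subunit Atp5a1 differed by 0.09 and 0.03. Atp5c1, the central-stalk gamma subunit, had the smallest p in Tyk2-/- against WT, with 0.13 (limma adjusted p = 0.599). Atp5j, coupling factor 6 of the peripheral stalk, read 7.35, 7.33 and 7.35 in WT, 7.62, 7.41 and 7.36 in Tyk2K923E and 7.22, 7.33 and 7.23 in Tyk2-/-. Its Tyk2-/- arrays lay below all Tyk2K923E arrays, by -0.20 (SE 0.08, limma adjusted p = 0.477). Atp5e, the epsilon subunit, differed by -0.16 in the same comparison (limma adjusted p = 0.504), but its second probe set by -0.06. Groups did not overlap between the mutants for 6 of 85 members (7.06%, background 5.51%), among them Atp5j and Atp5e. The 3 genes for the membrane c subunit, Atp5g1, Atp5g2 and Atp5g3, differed by -0.11, 0.03 and 0.01 in Tyk2-/- and by -0.02, -0.07 and -0.0056 in Tyk2K923E against WT.

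**Figure D2:**
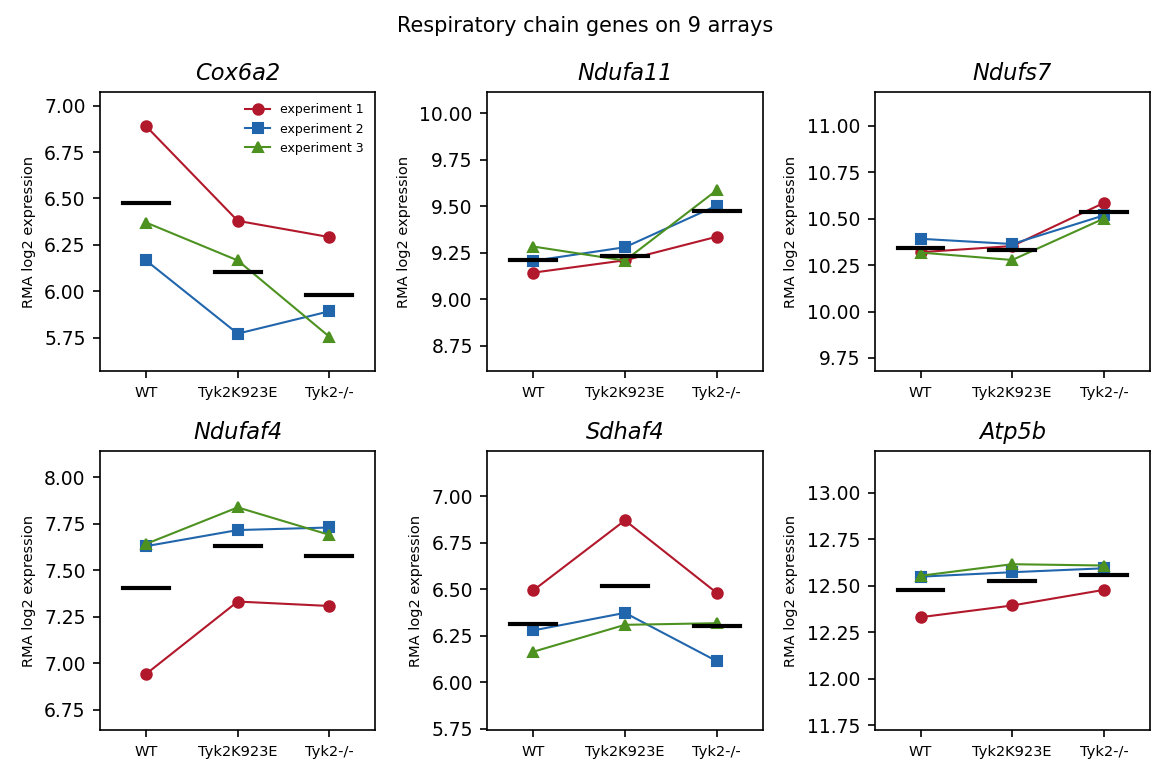
Deposited log2 expression of 6 genes on each of the 9 arrays by genotype, with a line joining the arrays of each experiment and a black bar at the mean of 3 arrays; every panel spans the same height. Ndufa11 and Ndufs7 are highest in Tyk2-/-, Cox6a2 is lower than WT in both mutants within each experiment, and Ndufaf4 separates mainly by experiment.

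The pathway around these subunits gave the same count of calls. None of 10 subunits encoded in mitochondrial DNA passed the limma test in any comparison, and their medians were -0.01, 0.0022 and -0.02. The same held for 6 electron carriers and further subunits, 11 other complex I assembly factors, 25 assembly factors of complexes II to V, 11 genes of ubiquinone synthesis and 16 regulators of mitochondrial biogenesis. Among the 6 carriers and further subunits, Cyc1 had the smallest p in Tyk2-/- against WT, with 0.20 (limma adjusted p = 0.57). Cyc1 encodes cytochrome c1, a complex III subunit that the symbol rule does not take. Foxred1, a complex I assembly factor, differed by -0.24 in Tyk2K923E against WT (limma adjusted p = 0.356) and by 0.30 in Tyk2-/- against Tyk2K923E (limma adjusted p = 0.452). For the TCA cycle, which feeds complexes I and II, 12 of 16 genes were higher in Tyk2-/- and 15 of 16 in Tyk2K923E than in WT, with medians of 0.08 and 0.07. Within experiments 1, 2 and 3 the medians of the TCA cycle were 0.15, 0.07 and 0.03 in Tyk2-/- and 0.04, 0.09 and 0.09 in Tyk2K923E. Of 35 mitochondrial ribosome genes, 29 and 28 were higher, with medians of 0.07 and 0.06. Within the experiments these medians were 0.11, 0.07 and 0.0019 in Tyk2-/- and 0.10, 0.07 and 0 in Tyk2K923E, so experiment 3 showed next to no difference. Of all 12579 genes tested, 6526 and 6393 were higher. Both comparisons share the WT arrays, and on the WT array of experiment 1 the median deviation from the gene's mean was -0.20 for the TCA cycle and -0.16 for the mitochondrial ribosome. In none of these lists did a gene pass the test. The 29 cell cycle genes, measured beside them, were all higher in Tyk2-/- than in WT (median 0.13) and 4 of them in Tyk2K923E (median -0.09), with 0 calls. Within experiments 1, 2 and 3 their medians were 0.22, 0.05 and 0.14 in Tyk2-/- and -0.41, 0.12 and 0.03 in Tyk2K923E, which was thus lower than WT in experiment 1 alone. Their part in the values of the respiratory chain was not tested.

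**Figure D3:**
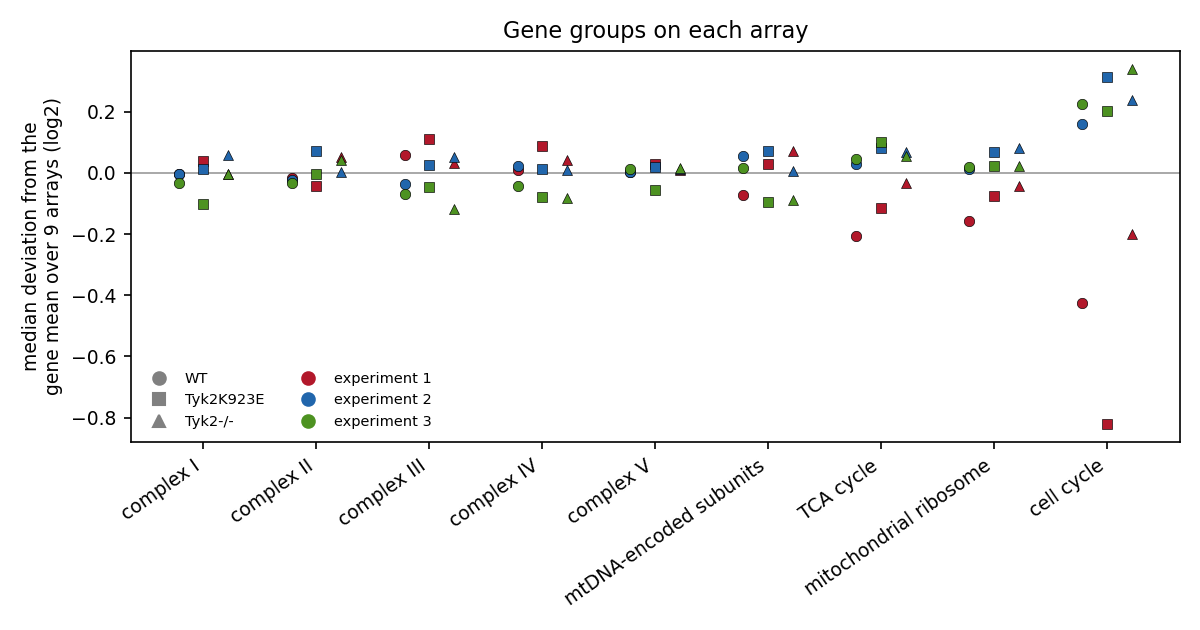
Median over each gene group of the deviation from the gene's mean over 9 arrays (log2), with 1 symbol per array, shaped by genotype and coloured by experiment. Complexes I to V stay between -0.12 and 0.11 on every array, whereas the cell cycle genes range from -0.82 to 0.34 and the TCA cycle and mitochondrial ribosome genes are lowest on the WT array of experiment 1.

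Most members varied more between experiments than between genotypes, as did most genes on the arrays. The range of the 3 experiment means was larger than that of the 3 genotype means for 67 of 85 members (78.8%) and for 9106 of all 12579 genes (72.4%). A limma F test of the experiment passed for 22 of 85 members (25.9%), where 28.7% of all genes passed. Of these 22, 16 were higher and 6 lower in experiment 1 than in the mean of experiments 2 and 3. Of all genes that passed, 1588 were higher and 2023 lower. By complex the calls were 8 of 31 in complex I, 1 of 4 in complex II, 1 of 7 in complex III, 6 of 14 in complex IV and 3 of 17 in complex V, with 1 of 8 and 2 of 4 among the assembly factors of complexes I and II. Without the WT array of experiment 1 the count fell to 12 members (2328 of all genes, from 3611), and without the Tyk2K923E array of experiment 1 to 13 (2250 genes).

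Ndufa6, an accessory subunit of the LYR-motif family, had the smallest p, with means over genotypes of 10.50, 9.84 and 9.71 in experiments 1 to 3 (limma adjusted p = 8.66e-04). Its experiment 1 arrays lay at 10.58, 10.63 and 10.30 in WT, Tyk2K923E and Tyk2-/-, above all 6 others, which lay between 9.66 and 9.86. Ndufaf4 went the other way, with means of 7.19, 7.69 and 7.72 (limma adjusted p = 0.00286). Ndufb11, a membrane-arm subunit encoded on the X chromosome, had means of 6.49, 6.22 and 5.75 (limma adjusted p = 0.00306), and the arrays of the 3 experiments did not overlap. The muscle-type isoforms Cox7a1 (7.48, 6.75 and 6.57) and Cox6a2 (6.52, 5.94 and 6.10) were among the 16 that were higher in experiment 1 (limma adjusted p = 0.00566 and 0.00862). Their partners Cox7a2 (10.16, 10.01 and 9.88) and Cox6a1 (12.76, 13.03 and 13.02) passed as well, Cox7a2 in the same direction and Cox6a1 in the opposite one (limma adjusted p = 0.0375 and 0.0161).

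Within complexes I, IV and V the members that passed went both ways, with 6, 5 and 2 higher and 2, 1 and 1 lower in experiment 1. The medians over all tested members in experiment 1 against the mean of experiments 2 and 3 were 0.02, -0.01, 0.13, 0.08 and 0.04 for complexes I to V. Other mitochondrial lists leaned one way there. All 7 of 16 TCA cycle genes that passed and 10 of the 11 of 35 mitochondrial ribosome genes that passed were lower in experiment 1, with medians of -0.17 and -0.11. The cell cycle genes were lower too, 26 of 29 passing with a median of -0.73. Of all 3611 genes that passed, 2023 were lower in experiment 1. Whether these moves are linked was not tested.

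**Figure D4:**
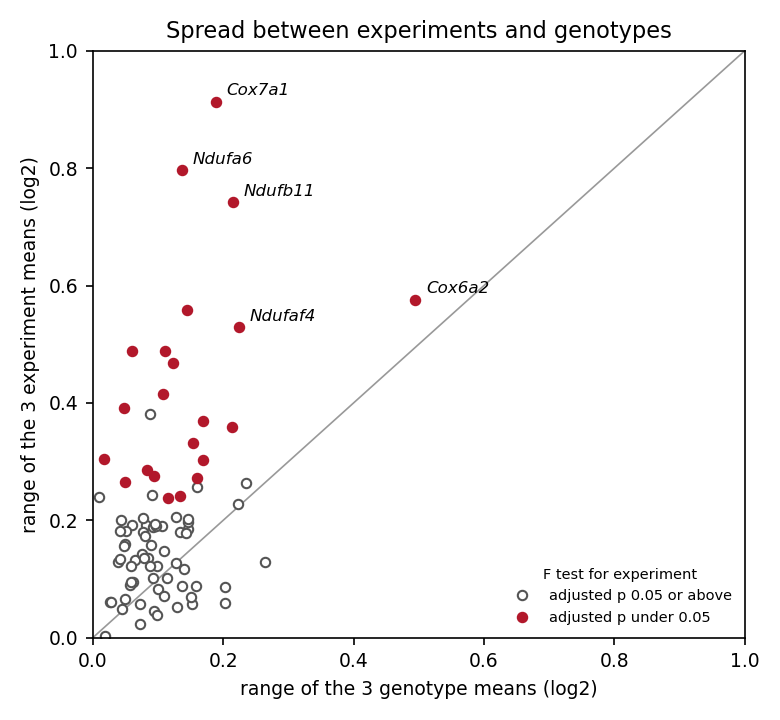
Range of the 3 experiment means against the range of the 3 genotype means (log2) for each of the 85 genes, with the line of equality; filled points passed the F test for experiment. Of the points, 67 lie above the line, and Cox7a1, Ndufa6 and Ndufb11 have the widest ranges between experiments.

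The arrays limit these members in several measured ways. For 29 of 85 members (34.1%, against 41.3% of all genes) at least 2 arrays carried exactly the same value, and for 6 (7.06%, against 8.40%) at least 4 did. Ndufab1 and Ndufc1 shared 1 value on 5 arrays, and Ndufa5, Ndufa7, Ndufaf1 and Ndufs1 on 4. A further 10 probe sets named a respiratory chain gene together with another gene, as with Cox6c, Ndufs6, Ndufb4, Uqcr10 and Ndufb2, and none of them passed the limma test when fitted beside the other probe sets. The lowest unadjusted limma p among them was 0.042, for the probe set of Ndufs5 and its pseudogene in Tyk2-/- against Tyk2K923E, with a difference of -0.21. Respiratory chain genes have many processed copies in the genome, so signal of a gene and of a near-identical copy cannot be told apart where probes match both.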

How the data were processed

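RNA from 9 pools of cultured splenic NK cells (3 genotypes, 3 experiments) was measured on Affymetrix arrays. The deposited values, 41345 probe sets on a log2 scale, had been normalised by the authors with RMA in Partek 6.6, per the submitters' processing notes. They were used without further transformation. Background and summary steps, and so depth-like precision, cannot be recovered from them, and the 3 arrays per genotype limit the precision.

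Probe sets were named through the platform annotation: 23521 carried 1 symbol, 1814 several and 16010 none. A probe set was tested if it reached its array's median on at least 3 of 9 arrays, and the brightest stood for its gene (12579 genes). limma 3.58.1 (R 4.3.3) was fitted with genotype and, as an additive block, experiment number, with Benjamini-Hochberg adjustment within each comparison over all genes tested; calls had an adjusted p under 0.05. Per the labels, the experiments were independent and numbered alike in each genotype, and deviations from genotype means correlated at 0.383 to 0.787 between arrays of 1 experiment (9 pairs) and at -0.71 to 0.559 otherwise (18 pairs). The procedure was tested on simulated data.

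Differences are log2, first-named minus second-named genotype, SEs are those of limma, and medians over members carry no test. Named were, per complex and comparison, the member with the smallest p, core subunits, tissue-restricted isoforms with their partners and the 3 members with the smallest p for experiment. Genes named beside these, chosen after their values were seen, were Ndufs7, Ndufab1, Ndufb3, Ndufa8, Atp5e, Sdhaf1, Sdhaf2 and those with equal values or without overlap. The members and all lists were chosen with earlier results of these data known. An exact test of 3 against 3 arrays cannot give a p below 0.1, so none was used.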

Additional observations from a re-analysis of the deposited data

How the results depend on the processing

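The count of 0 members called held under all 22 alternatives to the paired fit in each comparison (lowest limma adjusted p of a member 0.146, for Cox6a2 without Tyk2-/- replicate 2). The numbers of all genes called, 11, 11 and 3 in Tyk2-/- against WT, Tyk2K923E against WT and Tyk2-/- against Tyk2K923E, did move. With no replicate block, thus without pairing, they were 4, 1 and 3. With no filter they were 4 and 1 for the comparisons with WT, with a 70th percentile filter 19 and 29, with an intensity trend 22 and 41, with array weights 26 and 66, and with only the 2 genotypes compared 6 and 2. Median centring gave 18 and quantile normalisation 17 for Tyk2K923E against WT. Leaving out replicates gave 3 to 11, 1 to 34 (the highest without Tyk2-/- replicate 2) and 2 to 6.

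The medians over members were small and some changed sign. Median centring took the median of Tyk2-/- against WT from 0.03 to 0.014 over members and from 0.02 to 0.0063 over complex V. For the complex I assembly factors between the mutants it gave -0.026 and the 70th percentile filter -0.033, from -0.0094. Leaving out replicates gave, for Tyk2-/- against WT, 0.0055 to 0.034 over members, 0.013 to 0.052 for complex I, -0.057 to 0.022 for complex IV, -0.0017 to 0.045 for complex V and -0.032 to 0.076 for the complex I assembly factors. For the same comparison it gave -0.0073 to 0.029 for complex III and -0.016 to 0.029 for the complex II assembly factors. For Tyk2K923E against WT it gave -0.0035 to 0.049 over members, -0.024 to 0.041 for complex I, 0.034 to 0.085 for complex III, -0.071 to 0.050 for complex IV, -0.012 to 0.045 for complex V and -0.013 to 0.087 for the complex I assembly factors. Between the mutants it gave -0.029 to 0.0145 over members, -0.015 to 0.078 for complex I, -0.028 to 0.043 for complex II, -0.098 to 0.0043 for complex III, -0.073 to 0.026 for complex IV, -0.0062 to 0.042 for complex V and -0.041 to 0.010 for the complex I assembly factors. These ranges are not a test, because the refits share most of their arrays and members are not replicates. No direction is read from any of these medians, whether or not its range spans 0. Signs reversed for Sdhaf3 in Tyk2-/- against WT (-0.0099 without WT replicate 2 and -0.042 without replicate 2, in a range up to 0.287 when replicates were left out) and for Ndufaf4 between the mutants (0.0020 without Tyk2-/- replicate 3, in a range from -0.108). The cause was not tested in any of these.

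For the experiment, alternatives of filter, scaling, array weights or the mean over probe sets gave 16 to 25 members and the intensity trend 29, and leaving out single arrays, added after the data were seen, gave 12 to 19 members and 2250 to 3277 genes. Between 79 and 85 of 85 members had an interval within 0.5 when replicates were left out.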
